A study of Mus musculus with 6 samples.

Results

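The 42 genes described here carry a cell through mitosis. They encode the kinases, cyclins and phosphatases of mitotic entry, the spindle checkpoint, partners of the anaphase-promoting complex, centromere and kinetochore proteins, the chromosomal passenger complex, spindle motors, the machinery of cytokinesis, 2 transcription factors of the programme, and the proliferation genes Top2a and Mki67. They were taken by gene symbol from a list of known mitosis genes, and each symbol was found in the 56953 genes of the table. No measured value entered the rule, but earlier results of these data were known when the genes were chosen. Of the 42 genes, 40 passed the filter on low values, set at 10 or more normalized counts in 3 or more libraries. Bub3 and Prc1 were listed at 0 in all 6 libraries and were not tested.

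The cells were MEFs (mouse embryonic fibroblasts), a culture of connective tissue cells taken from embryos, and each of the labels WT and GαqKO was given to 3 libraries. The study's methods describe the latter as Gαq/11 knockout cells, so the WT libraries are the only control. Both lines were received from another laboratory and were grown untreated in DMEM medium with 10% fetal bovine serum. No further line of either genotype was analysed here, so the genotype and any other difference between the lines cannot be told apart. The study states biological replicates, and the p-values below measure the spread between these libraries.

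Mitosis begins when Cdk1, bound to A and B cyclins, is freed of its inhibitory phosphates by Cdc25 phosphatases, with help from Polo-like and Aurora kinases. The spindle checkpoint then holds the anaphase-promoting complex in check until every kinetochore is attached to microtubules, after which cyclin B and securin are degraded, sister chromatids part and the cell divides. Most of these genes are transcribed late in the cell cycle, through promoters with CCAAT boxes and cell cycle homology regions that are bound by NF-Y and by MuvB complexes with B-Myb and FoxM1. In a bulk library, fewer dividing cells and less RNA per dividing cell cannot be told apart.

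The reads counted on genes, where they could be recovered, ranged from 9853000 to 12229175 per library, and normalized counts summed to between 11392400 and 11483500. Gnaq, the gene of Gαq, averaged 1691 ± 48.5 normalized counts in WT and 1926 ± 36.0 in GαqKO (SD, n = 3 each) and was called higher (log2 fold change 0.19), whereas Gna11, the gene of Gα11, averaged 2148 ± 29.0 in WT and 451.6 ± 28.7 in GαqKO. Directions below therefore follow the labels. Of 12 fibroblast markers, Col1a1, Col1a2, Vim, Fn1 and Pdgfrb were high in every library, and the list summed to between 84482 and 90224 normalized counts in WT and between 63381 and 66595 in GαqKO. Of the 11 tested, 6 were called higher and 5 lower, with log2 fold changes from -1.53 to 6.82, where 65.8% of all genes tested were called. Pdgfra, Thy1 and Dcn were at 35.5 normalized counts or less in each WT library and at 59.0 or more in each GαqKO library. The 6 epithelial markers summed to between 515 and 541 normalized counts in WT, nearly all of it Cdh1 and Krt14, and to between 10.1 and 23.1 in GαqKO. The leukocyte, endothelial and skeletal muscle lists each summed to 104 normalized counts or less in every library. Itgam and Myog were listed at 0 in every library, and Ptprc, Sox10 and Epcam stayed at 8.09 normalized counts or less. The neural list summed to between 431 and 501 in WT and to between 117 and 137 in GαqKO, most of it Tubb3. The part of these marker differences in the mitosis genes was not tested.

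The mitosis genes did not move as a block in the libraries labelled GαqKO. Of the 40 tested, 17 (42.5%) were called higher and 11 (27.5%) lower, a call being an adjusted p under 0.05 in limma, and 12 did not pass. Among all 14096 genes tested, 31.8% were higher and 34.1% lower, 65.8% together, so a call as such was common in this comparison. Among the 8576 genes that averaged 200 normalized counts or more, 34.7% were higher and 38.2% lower. The log2 fold changes of the 40 mitosis genes (log2 of GαqKO over WT, each value with 1 added, given below ± the standard error) ran from -0.69 for Nusap1 to 1.24 for Ube2c, with a median of 0.062 against -0.012 for all genes. Sizes were modest: the median absolute log2 fold change was 0.27, against 0.39 over all genes tested and 0.32 over those 8576 genes. Past the study's thresholds, which ask also for a log2 fold change over 1 or under -1, there were 3 higher, Ube2c, Cdc25b and Ccna2, and 0 lower, whereas 11 were lower in limma at an unadjusted p under 0.05 with no fold threshold. The background past those thresholds was 10.2% of genes higher and 10.5% lower. All 3 GαqKO libraries lay above all 3 WT libraries for 18 of the 40 genes, where the background was 33.8%, and below them for 11, where it was 35.8%. When the median log2 fold change of each gene's 50 nearest genes was removed, a setting chosen after seeing the data, 19 were higher, 7 were lower and 0 passed the thresholds. Shares over all genes under that setting are not given here, so these counts have no background.

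**Figure D1:**
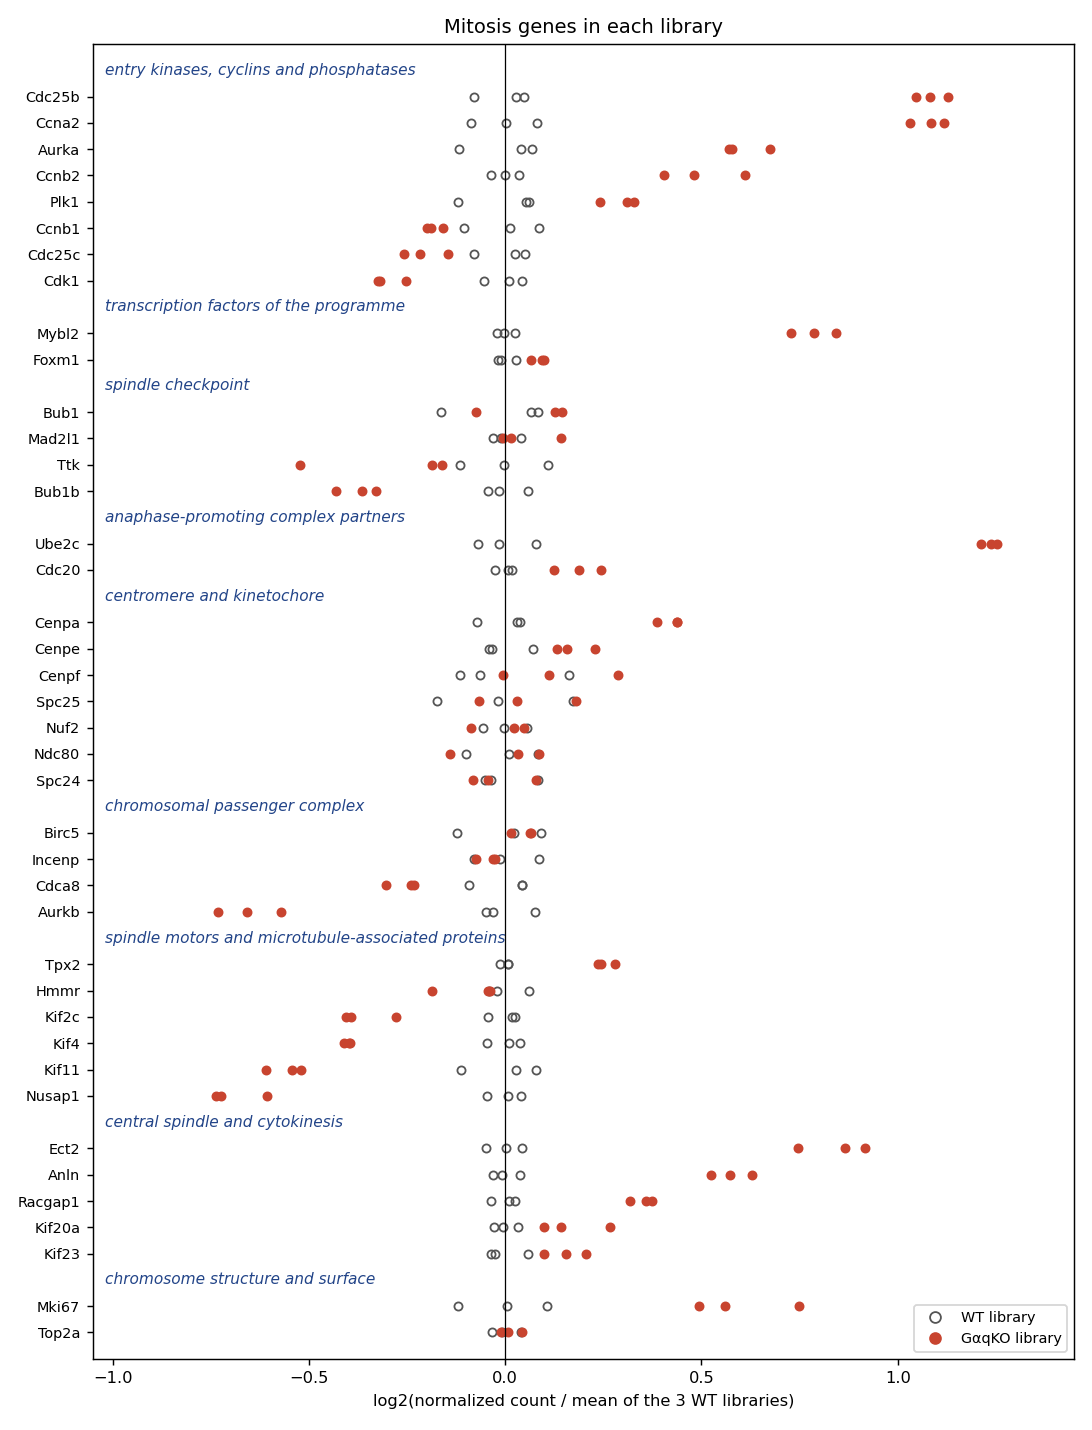
Each point is 1 library, with the normalized count of the gene on the horizontal axis as log2 of its ratio to the mean of the 3 WT libraries (open circles WT, filled circles GαqKO), for the 40 tested genes grouped by role. All 5 tested cytokinesis genes have their GαqKO points to the right of their WT points, 5 of 7 kinetochore genes have points that overlap, and Nusap1 and Kif11 have their GαqKO points well to the left.

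Promoters are shown for 6 genes so that the elements can be read beside the values, with 4 genes that were higher, Ube2c, Ect2, Mki67 and Cdc20, and 2 that were lower, Kif11 and Cdk1. They were chosen after their values and motifs were seen. RefSeq promoter sequences matched 34 of the 42 genes and were placed in GRCm39 by exact match of the sequence. The search covered the 250 bases before the transcription start, on both strands, for the cell cycle homology region (TTTGAA or TTCGAA) and for the CCAAT box (CCAAT), neither of which contains the other, although matches can share a base. Each line gives the 120 bases before the start, 5′ to 3′ on the gene's strand, with motif matches in capitals. A match on the opposite strand reads TTCAAA or ATTGG. The Cdk1 start used lies 47853 bases from the annotated start of its gene. Mki67 holds 3 CCAAT matches in the 250 bases searched, none of them wholly within the 120 shown.
Ube2c (chr2:164611729-164611848, GRCm39, plus strand): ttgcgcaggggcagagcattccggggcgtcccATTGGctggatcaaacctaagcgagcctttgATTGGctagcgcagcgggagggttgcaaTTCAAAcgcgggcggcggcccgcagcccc
Ect2 (chr3:27208028-27208147, GRCm39, minus strand): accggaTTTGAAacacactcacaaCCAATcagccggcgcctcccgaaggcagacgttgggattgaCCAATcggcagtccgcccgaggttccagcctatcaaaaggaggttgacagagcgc
Mki67 (chr7:135318109-135318228, GRCm39, minus strand): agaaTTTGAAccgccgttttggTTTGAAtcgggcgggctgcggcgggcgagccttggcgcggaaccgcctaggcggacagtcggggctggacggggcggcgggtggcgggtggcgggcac
Cdc20 (chr4:118294541-118294660, GRCm39, minus strand): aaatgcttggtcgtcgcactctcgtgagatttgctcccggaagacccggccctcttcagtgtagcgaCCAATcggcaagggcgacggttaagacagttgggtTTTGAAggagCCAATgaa
Kif11 (chr19:37364710-37364829, GRCm39, plus strand): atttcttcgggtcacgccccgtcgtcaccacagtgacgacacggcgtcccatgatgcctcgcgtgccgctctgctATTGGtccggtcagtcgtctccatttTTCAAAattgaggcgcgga
Cdk1 (chr10:69188743-69188862, GRCm39, minus strand): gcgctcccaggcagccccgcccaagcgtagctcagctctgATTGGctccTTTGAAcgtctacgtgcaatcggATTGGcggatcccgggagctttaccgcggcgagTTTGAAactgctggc

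Ube2c, which rose most of the 40 genes, and Kif11, which fell, hold the same kinds of element in these windows. Of the 34 promoters, 26 held CCAAT (76.5%), 11 held the cell cycle homology region (32.4%) and 10 held both (29.4%). Among all 32851 promoters of the table the shares were 33.8%, 17.1% and 6.02%. By direction, CCAAT was present in 12 of 14 promoters of higher genes, 7 of 9 of lower genes and 5 of 9 of genes that did not pass. The cell cycle homology region was present in 5 of 14, 4 of 9 and 1 of 9. The windows are a description of the letters and do not show binding.

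Mitotic entry split between higher and lower genes, and all 8 of its genes passed the test, with 5 higher and 3 lower. Counts by role, here and below, are to be read beside the shares over all genes tested, 31.8% higher and 34.1% lower. Cdc25b (ENSMUSG00000027330.17, chromosome 2, 131027866 to 131044913 of GRCm39), a phosphatase that activates cyclin-bound Cdk1, had 1302, 1401 and 1421 normalized counts in the WT libraries and 2912, 3002 and 2837 in GαqKO. Ccna2 (ENSMUSG00000027715.10, chromosome 3, 36619014 to 36626299 of GRCm39), which encodes cyclin A2, had 2218, 2343 and 2087 in WT and 4812.5, 4528 and 4696 in GαqKO. The groups stood far apart for both genes, with log2 fold changes of 1.09 ± 0.048 and 1.08 ± 0.049 (adjusted p = 2.06e-10 and 2.54e-10, limma). With the medians of their neighbours removed, Cdc25b stood at 0.66 and Ccna2 at 0.38, and both were still called higher. An overlapping gene on the other strand, Exosc9, spans 36.0% of the Ccna2 transcript. Aurka, the centrosomal Aurora kinase, had 1936, 1900.1 and 1703 in WT and 2740.1, 2947 and 2755 in GαqKO. Every GαqKO library lay above every WT library, and the log2 fold change was 0.61 ± 0.055 (adjusted p = 3.06e-07, limma), but the gene stood below its chromosomal neighbours, at -0.50 once their median was removed. Genes that overlap it span 38.8% of its transcript.

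Plk1, the Polo-like kinase of mitotic entry, had 1001, 1007 and 888 normalized counts in WT and 1211, 1142 and 1196 in GαqKO. Cdk1, the kinase that drives entry, had 1467, 1569.8 and 1533 and 1222, 1278 and 1216, and Ccnb1, which encodes its partner cyclin B1, had 1144, 1205 and 1054 and 995, 989 and 1017. Plk1 was thus higher in every GαqKO library (log2 fold change 0.30 ± 0.059, adjusted p = 0.000594, limma), and Cdk1 lower in every one (-0.30 ± 0.049, adjusted p = 0.000105). With the medians of their chromosomes removed, neither passed, with Cdk1 at -0.016 (adjusted p = 0.791, limma) and Plk1 at 0.12 (adjusted p = 0.108). The fall of Ccnb1 was small at -0.18 ± 0.057 (adjusted p = 0.0131, limma), and it lost its call without WT replicate 2 (adjusted p = 0.0821). Ccnb2, which encodes cyclin B2, averaged 428 ± 10.4 in WT and 607 ± 44.3 in GαqKO (SD, n = 3 each), a rise of 0.50 ± 0.070 on the log2 scale (adjusted p = 2.74e-05, limma). Cdc25c, the other Cdc25 phosphatase of the list, fell from 621 ± 29.4 to 538 ± 21.7 (log2 fold change -0.21 ± 0.065, adjusted p = 0.0126), and did not pass without GαqKO replicate 2 (adjusted p = 0.0511). With the median of their neighbours removed, Ccnb1 stood at -0.13 and Cdc25c at -0.094, and neither passed.

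Related genes of entry differed in their ratios between the groups. Per kilobase of transcript, Aurka stood at 0.524 ± 0.026 of the level of its relative Aurkb in WT and at 1.26 ± 0.09 in GαqKO (ratio ± SD over 3 libraries), although with the neighbours' medians removed Aurka was lower (-0.50) and Aurkb higher (0.18), which turns the direction of this ratio. The ratio of Cdc25b to Cdc25c went from 0.568 ± 0.00091 to 1.39 ± 0.094, and that of Ccna2 to Ccnb1 from 1.67 ± 0.019 to 3.99 ± 0.12. Ccnb2 stood at 0.607 ± 0.048 of Ccnb1 in WT and at 0.973 ± 0.084 in GαqKO. In each pair the ratios of the WT and GαqKO libraries did not overlap. These pairs were chosen after their values were seen, and their ratios are given without a test.

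Of the transcription factors, Mybl2, which encodes the B-Myb of the MuvB complexes, had 1622, 1602 and 1655 normalized counts in WT and 2806, 2918 and 2694 in GαqKO. Foxm1, the forkhead factor that acts with it, had 3539.8, 3449 and 3428 and 3704, 3718 and 3632. The Mybl2 groups lay far apart, with a log2 fold change of 0.79 ± 0.045 (adjusted p = 3.11e-09, limma). With the median of its neighbours removed, Mybl2 stood at 0.035 and did not pass (adjusted p = 0.544, limma). Foxm1 did not overlap between groups either, but its difference was 0.086 ± 0.039 (95% interval 0.00086 to 0.17) and did not pass the test (adjusted p = 0.0704). Other genes, Rhno1 among them, span 85.8% of the Foxm1 transcript, so its count is uncertain. Foxm1 was called lower with the median of its neighbours removed (-0.105, adjusted p = 0.0345, limma).

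Of the 4 tested spindle checkpoint genes, 2 were lower and 0 higher, also at an unadjusted p under 0.05 in limma. Among all genes tested, 34.1% were called lower and 31.8% higher. Bub1b, which encodes the BubR1 of the mitotic checkpoint complex, had 1485, 1562 and 1458 normalized counts in WT and 1196, 1115 and 1165 in GαqKO. It fell by 0.37 on the log2 scale (standard error 0.050, adjusted p = 1.83e-05, limma), but lay 0.088 above the median of its 50 neighbours. Ttk, the Mps1 kinase that starts checkpoint signalling, fell from 542 ± 42.0 to 446 ± 59.9 normalized counts (SD, n = 3 each; log2 fold change -0.29 ± 0.096, adjusted p = 0.0178). GαqKO replicate 2 had 377 counts of Ttk against 476 or more in the other libraries of its group, and without it the gene did not pass (adjusted p = 0.0922). Bub1, the kinase that recruits checkpoint proteins to kinetochores, had 799 ± 74.5 and 838 ± 69.1 (log2 fold change 0.070, 95% interval -0.098 to 0.24). Mad2l1, whose product Mad2 inhibits Cdc20, had 1237 ± 31.2 and 1282 ± 72.8 (0.050, 95% interval -0.065 to 0.17). Neither passed the test, and both overlapped between groups. Bub1 was called lower with the median of its neighbours removed (-0.336, adjusted p = 0.00248, limma). The transcript of Bub3, a partner of Bub1 and BubR1, lies wholly inside the span of Fgfr2 on the other strand, and its listed value of 0 is not read as absence.

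Both partners of the anaphase-promoting complex were higher, by very different amounts before the medians of their neighbours were removed. Ube2c (ENSMUSG00000001403.14, chromosome 2, 164611768 to 164620742 of GRCm39), the ubiquitin-conjugating enzyme that starts chains on its substrates, had 1294, 1380.4 and 1247 normalized counts in WT and 3117, 3028 and 3083 in GαqKO. Cdc20, the activator that the checkpoint inhibits, had 3006, 2939 and 3026 and 3543, 3258 and 3408. The lowest GαqKO library had 3028 counts of Ube2c against 1380.4 in the highest WT library, and the log2 fold change was 1.24 ± 0.048 (adjusted p = 5.12e-11, limma), the largest of the 40 genes. That of Cdc20 was 0.19 ± 0.044 (adjusted p = 0.00197), with every GαqKO library above WT. Per kilobase, Ube2c stood at 0.839 ± 0.057 of Cdc20 in WT and at 1.73 ± 0.048 in GαqKO. Once the medians of their neighbours were removed, Ube2c stood at 0.45 and Cdc20 at 0.54, which turns the direction of this ratio. No overlapping gene covers any of the Ube2c transcript.

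Most kinetochore genes did not pass the test. Of the 7 genes, 2 were higher, 5 did not pass and 0 were lower, also at an unadjusted p under 0.05 in limma. The shares called over all genes tested were 31.8% higher and 34.1% lower. Cenpa, the histone H3 variant that marks centromeres, had 2184, 2197 and 2036 normalized counts in WT and 2899, 2896 and 2795 in GαqKO. Cenpf, a large outer kinetochore protein and the gene of this role with the highest count, had 2475, 2563 and 2998 and 3268, 2895 and 2669.6. Cenpa was higher in every GαqKO library (0.42 ± 0.045, adjusted p = 1.99e-06, limma), whereas the Cenpf groups overlapped (0.14 ± 0.077, adjusted p = 0.134). The call of Cenpf depended on single libraries, and it was called higher without WT replicate 3 (log2 fold change 0.22, adjusted p = 0.00418) or without GαqKO replicate 3 (0.20, adjusted p = 0.0403). Cenpe, the kinetochore motor that moves chromosomes to the plate, was higher by 0.17 ± 0.053 (adjusted p = 0.0105, limma), but turned to -0.15 with its chromosome's median removed and to -0.23 with that of its neighbours removed, and did not pass without GαqKO replicate 1 (adjusted p = 0.0569). The 4 subunits of the Ndc80 complex, which binds microtubule ends, had log2 fold changes near 0, with Ndc80 at -0.0050 (95% interval -0.21 to 0.20), Nuf2 at -0.0048 (-0.14 to 0.13), Spc24 at -0.015 (-0.14 to 0.11) and Spc25 at 0.054 (-0.14 to 0.25). These intervals leave room for a log2 difference of up to 0.25 in Spc25, of which Nostrin on the other strand spans 47.4%. Nuf2 was called higher with the median of its neighbours removed (0.249, adjusted p = 0.00244, limma).

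Of the 4 subunits of the chromosomal passenger complex, 2 were lower, where 34.1% of all genes tested were, and 2 did not pass. The picture of the complex changed with the neighbours' medians removed, when Aurkb (0.18), Birc5 (0.22, adjusted p = 0.00301, limma) and Incenp (0.40, adjusted p = 7.70e-06) were called higher. Aurkb (ENSMUSG00000020897.13, chromosome 11, 68936467 to 68944764 of GRCm39), its kinase, had 2299, 2132 and 2107 normalized counts in WT and 1468, 1382 and 1312 in GαqKO. Incenp, the scaffold that binds and activates it, had 2072, 2322 and 2168 and 2148, 2139 and 2078. Aurkb was lower in every GαqKO library, with a log2 fold change of -0.65 ± 0.054 (adjusted p = 1.35e-07, limma), but turned to the 0.18 given above once the median of its 50 neighbours was removed. Incenp overlapped between groups (-0.042, 95% interval -0.15 to 0.064, adjusted p = 0.466). Birc5, which encodes survivin, had 1813 ± 135 and 1873 ± 37.3 normalized counts (SD, n = 3 each; 0.050, 95% interval -0.069 to 0.17), and it was also called higher with the median of its chromosome removed (0.16, adjusted p = 0.0184, limma). Cdca8, which encodes borealin, fell from 1571 ± 83.8 to 1313 ± 35.4 (-0.26 ± 0.052, adjusted p = 0.000635), but turned to 0.098 with the median of chromosome 4 removed and to 0.011 with that of its neighbours removed.

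Spindle motors and microtubule-associated proteins were the role with the most falls, with 4 lower, 1 higher and 1 that did not pass. Of all genes tested, 34.1% were lower and 31.8% higher. Nusap1 (ENSMUSG00000027306.16, chromosome 2, 119448779 to 119481725 of GRCm39), which bundles spindle microtubules around chromosomes, had 1036, 1099.7 and 1075 normalized counts in WT and 703, 647 and 642 in GαqKO. Tpx2, the spindle assembly factor that activates Aurora A, had 2029.9, 2030.3 and 2001 and 2453, 2391 and 2379.6. Nusap1 was the gene that fell most of the 40 (-0.69 ± 0.057, adjusted p = 1.46e-07, limma), and Tpx2 was higher in every GαqKO library (0.25 ± 0.041, adjusted p = 0.000105). Kif11, the Eg5 motor that pushes spindle poles apart, fell from 2041 ± 138 to 1387 ± 43.3 normalized counts (SD, n = 3 each; -0.56 ± 0.055, adjusted p = 8.20e-07). With the medians of their neighbours removed, Nusap1 stood at -0.29 and Kif11 at -0.20, and both were still called lower. Kif2c, a microtubule depolymerase of the centromere, fell from 672 ± 17.0 to 524 ± 25.6 (-0.36 ± 0.063, adjusted p = 0.000189), and Kif4, the chromokinesin encoded on the X chromosome, from 606 ± 17.8 to 459 ± 2.60 (-0.40 ± 0.062, adjusted p = 6.25e-05). With the medians of their chromosomes removed, Kif2c stood at -0.0040 and Kif4 at -0.13, and neither passed. Hmmr, a spindle-pole adaptor, had 1651 ± 62.3 and 1553 ± 89.0 (-0.090, 95% interval -0.21 to 0.026) and did not pass. It was called higher with the median of its neighbours removed (0.15, adjusted p = 0.0251, limma).

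All 5 tested genes of the central spindle and cytokinesis were higher, where 31.8% of all genes tested were. All 5 remained higher with the median of their neighbours removed, although Ect2 went from 0.84 to 0.15 (adjusted p = 0.0379, limma). Ect2 (ENSMUSG00000027699.20, chromosome 3, 27151371 to 27208029 of GRCm39), the exchange factor that activates RhoA at the division plane, had 819.7, 843 and 791 normalized counts in WT and 1489, 1545 and 1371 in GαqKO. Racgap1, a subunit of the centralspindlin complex and a partner of Ect2, had 3729.8, 3576 and 3694 and 4702, 4749.8 and 4568. Groups were well apart for both, with log2 fold changes of 0.84 ± 0.057 and 0.35 ± 0.040 (adjusted p = 1.57e-08 and 3.74e-06, limma). Anln, the anillin scaffold of the contractile ring, averaged 2525 ± 61.9 in WT and 3764 ± 136 in GαqKO (SD, n = 3 each; 0.58 ± 0.044, adjusted p = 5.41e-08). The rises of the kinesins were smaller. Kif23, the motor of centralspindlin, went from 1049.7 ± 37.8 to 1168 ± 43.7 (0.15 ± 0.053, adjusted p = 0.0194), and Kif20a, which carries the passenger complex to the midzone, from 543 ± 11.8 to 611 ± 37.5 (0.17 ± 0.065, adjusted p = 0.0337). Kif23 did not pass without WT replicate 1, WT replicate 2, GαqKO replicate 1 or GαqKO replicate 3 (adjusted p from 0.0524 to 0.0895), nor Kif20a without WT replicate 2, WT replicate 3, GαqKO replicate 1 or GαqKO replicate 3 (0.0557 to 0.162). Brd8 and Cdc23 span 75.6% of the Kif20a transcript. Prc1, the bundler of the midzone, lies wholly inside the span of Rccd1 on the other strand and was listed at 0.

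Of the common markers of proliferation, Mki67 was higher and Top2a did not pass, but both were called higher with the median of their neighbours removed, Mki67 at 0.25 and Top2a at 0.28 (adjusted p = 0.00575 and 3.86e-05, limma). Mki67 (ENSMUSG00000031004.9, chromosome 7, 135291513 to 135318299 of GRCm39), which encodes the chromosome surface protein Ki-67, had 5916, 6445 and 6920.4 normalized counts in WT and 10788, 9468 and 9051 in GαqKO. Top2a, the topoisomerase that untangles sister chromatids, had 4741, 4992 and 4821 and 5001, 4876 and 4819. Mki67 was higher in every GαqKO library (0.60 ± 0.066, adjusted p = 2.48e-06, limma), with its widest spread among those libraries, from 9051 to 10788. Top2a overlapped between groups and differed by 0.014 (95% interval -0.072 to 0.10, adjusted p = 0.771), and with the median of its chromosome removed it was called higher (0.13, adjusted p = 0.0131, limma).

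**Figure D2:**
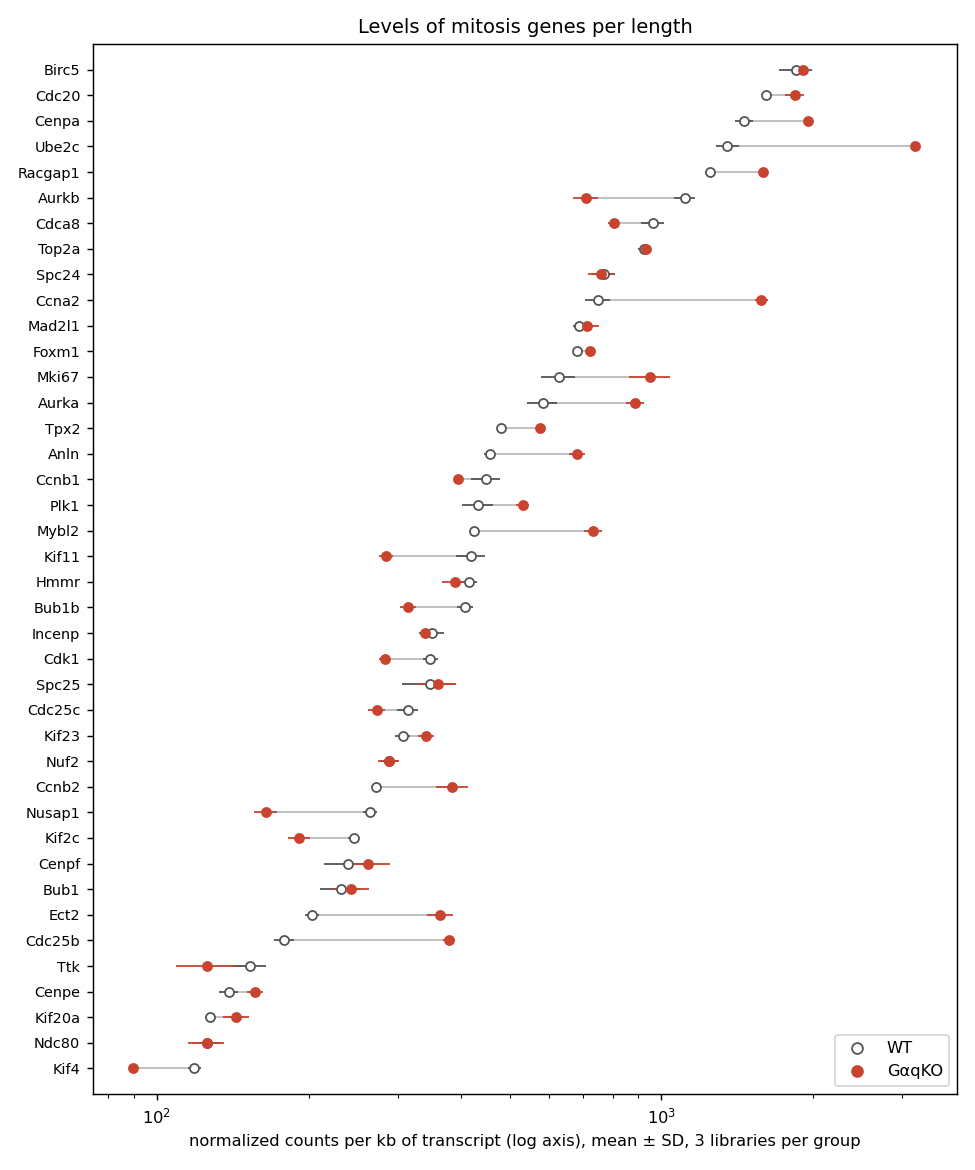
Mean normalized counts per kilobase of the canonical transcript in WT (open circles) and GαqKO (filled circles) on a log axis, ± SD over 3 libraries, for the 40 tested genes in order of their WT level. Birc5 is highest in WT at 1850 and Kif4 lowest at 119, and in GαqKO Ube2c rises to the top at 3181.

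Compared per kilobase of transcript, the levels ran in WT from 119 ± 3.49 for Kif4 to 1849.6 ± 138 for Birc5 (mean ± SD, n = 3). In WT, Birc5 and Cdc20, at 1613 ± 24.7, led the order, followed by Cenpa at 1459 ± 61.3 and Ube2c at 1352 ± 70.1, and Cenpa and Ube2c differed by less than the sum of their SDs. In GαqKO, Ube2c led at 3181 ± 46.1, ahead of Cenpa at 1953 ± 40.6 and Birc5 at 1911 ± 38.1, and Cenpa and Birc5 differed by less than the sum of their SDs. Summed over the 40 genes, the level was 22525, 22669 and 21868 normalized counts per kilobase in the WT libraries and 27454, 26803 and 26598 in GαqKO. The mean sum in GαqKO was 1.21 times that in WT. Of that difference, 76.1% came from Ube2c, Ccna2, Cenpa and Racgap1, and without those 4 the sums were 17677, 17734 and 17227 in WT and 19028, 18550 and 18364 in GαqKO.

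Replicates lay close together. The median coefficient of variation over the 40 genes was 4.29% in WT and 3.87% in GαqKO, and it ran from 0.566% for Kif4 in GαqKO to 13.4% for Ttk in GαqKO. GαqKO replicate 1 had the highest value of its group for 23 of the 40 genes, GαqKO replicate 2 for 12 and GαqKO replicate 3 for 5. In WT the corresponding counts were 11, 18 and 11.

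The fold change of a mitosis gene tracked that of the genes beside it on the chromosome. For each gene the median log2 fold change was taken over the 50 nearest tested genes, which spread over 1.78 to 16.8 Mb, with a median of 5.05 Mb. These medians ran from -0.83 around Aurkb to 1.11 around Aurka. Across the 40 genes, Pearson's r between the gene and its neighbours was 0.81 and Spearman's rho 0.79, as a description across genes that share the same 6 libraries and, in 7 pairs, the same neighbours. The same r was 0.20 over 14033 genes, 0.24 over the 8558 of these that averaged 200 normalized counts or more, 0.52 over 128 other mitosis genes and 0.65 over 41 DNA replication genes. Spearman's rho over the 14033 genes was 0.335. Of the 28 called mitosis genes, 23 had neighbours whose median had the same sign (82.1%), against 68.4% of all called genes, 67 of 77 called other mitosis genes and 26 of 31 called DNA replication genes. Among called genes that averaged 200 normalized counts or more, the share was 70.9%. The 23 mitosis genes were 13 of the 17 higher ones and 10 of the 11 lower ones.

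**Figure D3:**
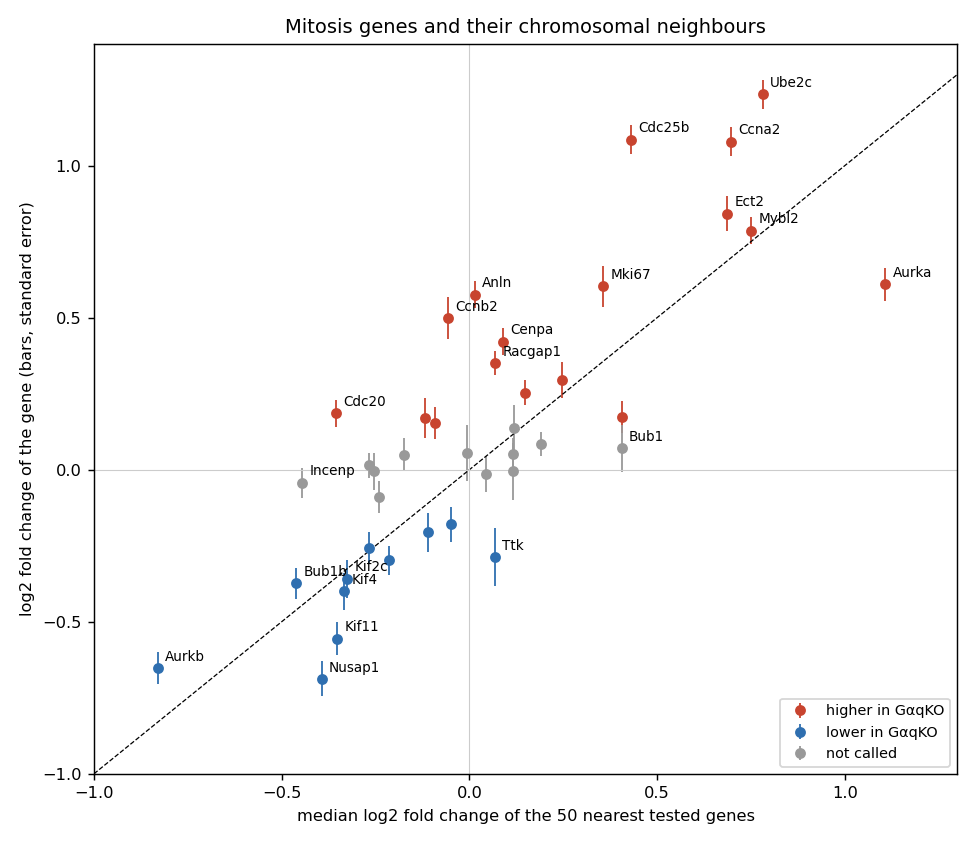
The log2 fold change of each of the 40 genes (vertical axis, with its standard error) is plotted against the median log2 fold change of its 50 nearest tested genes (horizontal axis), with equal values on the dashed line and colours for the call. Aurkb and Bub1b lie just above the line in the lower left, Ube2c, Cdc25b and Ccna2 lie above it in the upper right, and Aurka lies below it.

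Of the 40 genes, 30 lay between the quartiles of their 50 neighbours, 8 above and 2 below. Those above were Cdc25b, Ccna2, Ccnb2, Cdc20, Ube2c, Cenpa, Kif20a and Anln, and those below were Bub1 and Ttk. The same share over all genes is not given here, so these counts are not read as a trait of the mitosis genes. Anln lay above 46 of its 50 neighbours, whose median was 0.015, and Cdc20 above 42 of 50, whose median was -0.35. Of the 17 higher genes, 13 kept their call and direction when the neighbours' median was removed, namely Ccna2, Ccnb2, Cdc25b, Cdc20, Ube2c, Cenpa, Tpx2, Kif20a, Kif23, Racgap1, Ect2, Anln and Mki67. Of the 11 lower genes, 3 did, namely Ttk, Kif11 and Nusap1. Mybl2 was at 0.035 and Plk1 at 0.049 on that scale, and neither passed. The share of all called genes that kept their call under this setting is not given here. Genes that neighbour each other are not independent here. Mybl2 and Ube2c shared 43 of 50 neighbours, Bub1b and Nusap1 42, Ccna2 and Ect2 21 and Bub1 and Cdc25b 9. Genes that shared a region did not always move alike: Cdc25c and Kif20a shared 49 neighbours at -0.21 and 0.17, Anln and Spc24 shared 48 at 0.58 and -0.015, and Cdc20 and Kif2c shared 34 at 0.19 and -0.36.

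Chromosome 2 held 9 of the 40 tested genes and showed the pattern within 1 chromosome. In order along it, Spc25 was not called, Bub1b and Nusap1 were lower and Bub1 was not called. Next came Cdc25b, Tpx2, Mybl2, Ube2c and Aurka, all higher. The medians of the neighbours of these 9 genes were -0.0068, -0.46, -0.39, 0.41, 0.43, 0.15, 0.75, 0.78 and 1.11 in the same order. The median over the whole chromosome was 0.026. Once the neighbours' medians were removed, Bub1b, Bub1 and Aurka changed sign and Mybl2 no longer passed. Elsewhere, the 3 tested genes of chromosome 3, Ccna2, Ect2 and Cenpe, were all higher where the chromosome's median was 0.32, although Cenpe turned lower once it was removed. On chromosome 4, with a median of -0.35, Kif2c and Cdca8 were lower and Cdc20 was higher, although Cdca8 changed sign once that median was removed. The part of these regional values in the fold changes of the mitosis genes was not tested beyond the setting that removes them.

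**Figure D4:**
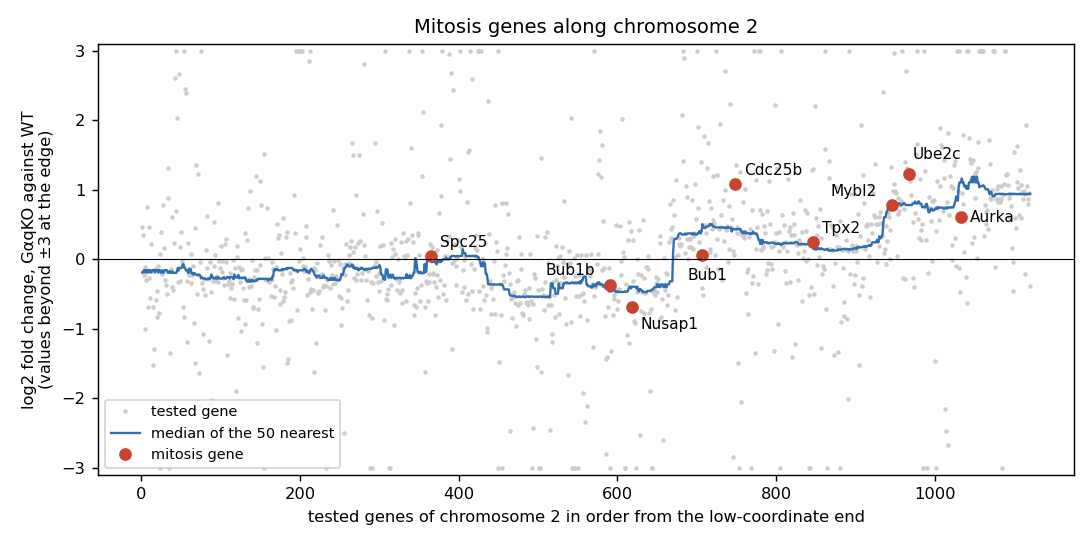
The log2 fold change of each tested gene of chromosome 2 (grey points), in gene order, with the running median of the 50 nearest genes (line) and the 9 mitosis genes (large points). The line lies below 0 around Bub1b and Nusap1 and above 0 from Bub1 to Aurka, and Cdc25b and Ube2c lie above the line.

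The wider pathway was mixed as well. Of 130 other mitosis genes, which cover the anaphase-promoting complex, cohesin, condensin, other kinetochore and spindle proteins and regulators, 128 were tested, with 43 higher and 34 lower in limma and a median log2 fold change of -0.0053. The shares over all genes tested, beside which these counts and those by role are to be read, were 31.8% higher and 34.1% lower. Condensin, which compacts mitotic chromosomes, had 5 of 8 subunits higher and 1 lower. The anaphase-promoting complex and its regulators had 5 of 17 higher and 6 lower, and cohesin with separase and their regulators 4 of 15 higher and 5 lower. Among those that averaged 100 normalized counts or more, the 5 largest rises were Cenpm (1.22), E2f1 (1.17), Anapc15 (1.00), Cenpn (0.95) and Cenpu (0.94). E2f1, a transcription factor that drives S-phase genes, went from 1286 ± 53.2 to 2897 ± 14.1 normalized counts (SD, n = 3 each; adjusted p = 5.18e-11, limma). The 5 largest falls were Cdc26 (-1.14), Bora (-0.57), Knstrn (-0.56), Cenpw (-0.56) and Espl1 (-0.53). Bora, an activator of Aurora A toward Plk1, went from 1186 ± 83.1 to 797 ± 38.5, and Espl1, which encodes separase, from 2249 ± 149.5 to 1555 ± 114 (adjusted p = 2.18e-06 and 4.16e-06, limma). Other genes span 87.1% of the Cdc26 transcript, 74.6% of Anapc15 and 65.2% of Cenpu. Past the study's thresholds were Cenpm and E2f1, which were higher, and Cdc26 and Myb, which were lower. Myb had between 29.5 and 32.1 normalized counts in the WT libraries and was listed at 0 in each GαqKO library, and it is named after its values were seen.

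Of the 42 DNA replication genes, which act in the phase before, 41 were tested, with 17 higher, 14 lower and a median of 0.046. Over all genes tested, 31.8% were higher and 34.1% lower. Dut, which keeps uracil out of DNA, was the only one of them past the thresholds (1.14 ± 0.045, adjusted p = 6.40e-11, limma), and it is named after its values were seen. The medians of the mitosis, other mitosis and replication lists thus lay between -0.0053 and 0.062, beside -0.012 for all genes.

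**Figure D5:**
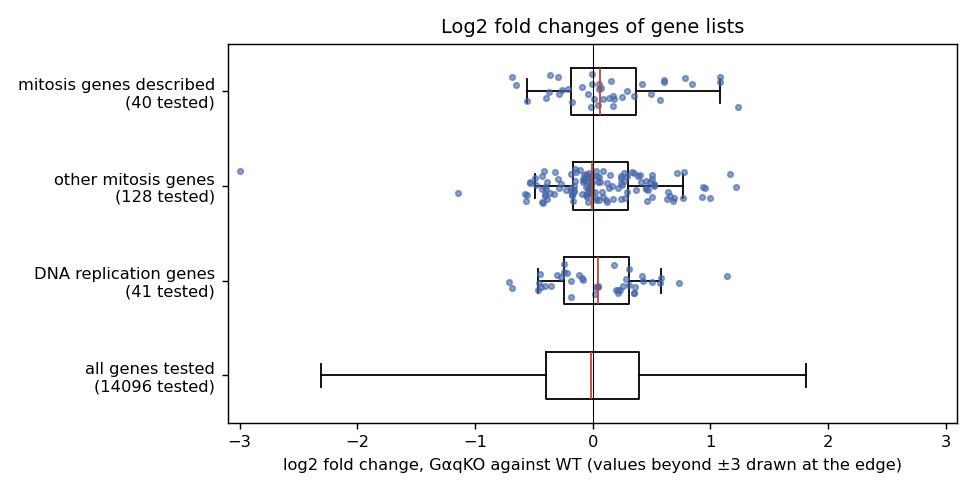
Log2 fold changes of the 40 mitosis genes, 128 other mitosis genes, 41 DNA replication genes and all 14096 genes tested, with boxes at the quartiles, a red line at the median and whiskers at the 5th and 95th percentiles. Points are single genes, and the boxes of the 3 lists lie within or close to the box of all genes.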

How the data were processed

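RNA was sequenced from 3 WT and 3 GαqKO libraries of MEFs. Per the labels and the study's methods, the authors made stranded poly-A libraries, aligned paired-end reads to GRCm39 with Rbowtie2, counted them per gene with featureCounts on a GENCODE annotation and normalized them with DESeq2. The deposited values are a signal, the authors' counts per gene scaled by 1 factor in each library. Tool versions and the strand setting of the counting are not given in the sources used here. Genes wholly inside the spans of others were often listed at 0. Of the tested mitosis genes, 7 had over 10% of the transcript inside other genes, so their counts are uncertain. These were Ccna2, Cdc25c (16.8%), Aurka, Foxm1, Spc25, Kif4 (16.7%) and Kif20a.

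Here, limma 3.58.1 (R 4.3.3) modelled log2(normalized count + 1) over the 6 libraries with a trend in the prior spread, over the 14096 genes that reached 10 normalized counts in 3 libraries, with Benjamini-Hochberg adjustment over all of them. A fold change on this scale understates the change of low genes. Symbols, coordinates and canonical transcript lengths came from GENCODE M39, which matched 56310 of 56953 identifiers. In 5 libraries, 100% of values divided by the step of 1 read came out whole (tolerance 0.1), so edgeR 4.0.16 and DESeq2 1.42.0 were run on the reads of those 5 as alternatives. The reads of GαqKO replicate 3 were not used. Other alternatives were the scaling, the filter, the pseudocount, limma's treat test, a replicate block, removal of chromosome medians and each library left out. Removal of the medians of 50 neighbours was added after seeing the data.

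The 42 genes, the other lists and the rules were chosen with earlier results of these data known. By rule, values per library were given in each role for the called gene with the largest change and the gene with the highest mean, and for Cdk1, Ccnb1, Plk1, Aurka, Aurkb, Mki67, Top2a and Foxm1, with the 5 largest rises and falls among other mitosis genes. On simulated data limma recovered 200 of 200 changed genes among 13922, with 12 false calls. Recovery at the median absolute log2 fold change of the mitosis genes, 0.27, was not tested on its own. Replicates differed by more than counting noise, with a chi-square per gene of 2.44 to 5.5 in the pairs with recovered reads. Intervals are at the 95% level and cover the spread between libraries. Figures and summaries were made in Python 3.11.15 (pandas 2.3.3, matplotlib 3.10.9).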

Additional observations from a re-analysis of the deposited data

How the results depend on the processing

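Scaling, filter, pseudocount, replicate block and count tests changed few calls: 33 of the 40 genes kept their call in every setting other than the regional ones, and the median of the 40 lay between 0.045 and 0.102 in all settings. Leaving out each library in turn gave 14 to 17 higher genes, 9 to 11 lower, and 3 past the thresholds each time. The replicate numbers did not pair the libraries, since same-numbered deviations correlated at -0.045, -0.148 and -0.064, and with the replicate block 17 of the 40 were higher and 11 lower, with no call changed. Under limma's treat, which tests against the fold threshold itself, 1 gene was higher past it in place of 3. DESeq2 on 5 libraries called 9 DNA replication genes lower in place of 14. With neighbourhood medians removed, chosen after seeing the data and given without shares over all genes, 7 of the 40 were lower. In that setting 0 were past the thresholds and 8 DNA replication genes were lower. These genes then had the opposite sign: Aurka (-0.498), Foxm1 (-0.105), Bub1 (-0.336), Bub1b (0.088), Mad2l1 (-0.067), Cenpe (-0.232), Nuf2 (0.249), Aurkb (0.178), Incenp (0.403), Cdca8 (0.011) and Hmmr (0.15). With chromosome medians removed, Cenpe (-0.152) and Cdca8 (0.098) did, as did Incenp (0.106), Hmmr (0.024), Nuf2 (0.020), Ndc80 (0.0020) and Mad2l1 (-0.0080), which were not called in either fit. These shifts follow from the construction of the settings, and what set the regional medians was not tested. The 0 genes lower past the thresholds were 0 in every setting run, limma, edgeR and DESeq2 included, while 11 of the 40 were lower at an adjusted p under 0.05 in limma, 11 in edgeR and 9 in DESeq2. The number of libraries limits what small differences can be told from 0.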
